A study of Mus musculus with 14 samples.

Results

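The MHC class I antigen presentation genes described here are 10 genes, found in the deposited table by matching its Ensembl identifiers to the symbols of the GRCm38 annotation (GENCODE). All 10 were present among the 52550 genes of the table, and all 10 passed the expression filter that left 16836 genes for testing. They are the class I heavy chains H2-K1 and H2-D1, the light chain B2m, the peptide transporter subunits Tap1 and Tap2, the loading chaperone Tapbp, the transactivator Nlrc5 and the immunoproteasome subunits Psmb8, Psmb9 and Psmb10. The rule names the members by function and uses no measured value.

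RNA-seq was performed on 6 KPY-Ctrl and 8 KPY-Setd2KO lung adenocarcinomas of the mouse. KPY mice of both groups carried Trp53 flox/flox and Rosa26 LSL-YFP/LSL-YFP alleles, among others, on a mixed B6J/129S4vJae background. Tumors were started by a lentivirus delivered into the airway that encodes Cre, Cas9 and a guide RNA. The guide targeted beta-galactosidase (sgBGal) in controls and Setd2 (sgSetd2) in knockouts, so that p53 loss and Cas9 were shared by all tumors. According to the methods of the study, tumors were dissected one by one, digested, and sorted for live cells with yellow fluorescent protein (YFP). The deposited labels instead describe RNA from cell lines and other kits, a conflict that was not resolved. The study lists fewer mice than tumors, and the mouse of each tumor is not given, so p-values treat tumors as independent although some share a mouse. The age of each mouse at collection is not given here.

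MHC class I molecules display peptides from inside the cell to CD8 T cells. Peptides are cut by the proteasome, pumped into the endoplasmic reticulum by the TAP transporter, and loaded onto a heavy chain paired with B2M in a complex held by tapasin. Interferon gamma raises most of these genes, in part through IRF1, and NLRC5 acts at class I promoters through a conserved set of elements that includes the X2 and Y boxes. SETD2, the enzyme that trimethylates lysine 36 of histone H3, has also been linked to interferon signaling. The comparison of KPY-Setd2KO with KPY-Ctrl tumors asked how transcript levels differ when Setd2 is targeted.

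Most members lie in the MHC region of chromosome 17, in the order Tapbp, H2-K1, Psmb9, Tap1, Psmb8, Tap2, with H2-D1 farther along. In GRCm38, H2-K1 (ENSMUSG00000061232.15) spans 33996017 to 34000347 on the minus strand and H2-D1 (ENSMUSG00000073411.11) spans 35262730 to 35267499 on the plus strand. Tapbp (ENSMUSG00000024308.14) spans 33915899 to 33929292. Psmb9 (ENSMUSG00000096727.2), Tap1 (ENSMUSG00000037321.17), Psmb8 (ENSMUSG00000024338.14) and Tap2 (ENSMUSG00000024339.12) follow one another within 34.3 kb, from 34181987 to 34216321, and Psmb9 alone among these is read from the minus strand. B2m (ENSMUSG00000060802.8) is on chromosome 2 from 122147686 to 122153083. Nlrc5 (ENSMUSG00000074151.13) is on chromosome 8 from 94434356 to 94527272, and Psmb10 (ENSMUSG00000031897.9) is on the same chromosome from 105935735 to 105938444.

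Promoters of the heavy chains and of B2m are shown because these 3 genes form the class I molecule itself. RefSeq (GRCm38.p6) gave a promoter for 8 of the 10 members, all except Tap2 and Nlrc5, and the 250 bases before the transcription start were searched on both strands. Capitals mark matches to the NF-kB consensus, to the letters GAAANNGAA from the interferon-stimulated response element, and to the X2 core TGACG followed after 10 to 30 bases by the Y box core ATTGG. The sequences below lie at chr17:34000334-34000583 (H2-K1, minus strand, the first of its 2 RefSeq starts), chr17:35262844-35263093 (H2-D1, plus strand) and chr2:122147437-122147686 (B2m, plus strand).
H2-K1: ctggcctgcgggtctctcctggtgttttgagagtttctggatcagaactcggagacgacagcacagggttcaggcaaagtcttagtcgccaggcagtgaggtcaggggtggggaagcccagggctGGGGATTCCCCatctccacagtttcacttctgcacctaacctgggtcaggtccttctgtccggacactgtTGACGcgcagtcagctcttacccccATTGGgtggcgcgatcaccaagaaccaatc
H2-D1: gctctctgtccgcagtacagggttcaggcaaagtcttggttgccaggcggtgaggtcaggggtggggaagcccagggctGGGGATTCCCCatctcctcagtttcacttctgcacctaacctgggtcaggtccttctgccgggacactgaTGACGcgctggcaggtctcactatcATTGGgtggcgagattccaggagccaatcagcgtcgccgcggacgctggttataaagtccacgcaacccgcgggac
B2m: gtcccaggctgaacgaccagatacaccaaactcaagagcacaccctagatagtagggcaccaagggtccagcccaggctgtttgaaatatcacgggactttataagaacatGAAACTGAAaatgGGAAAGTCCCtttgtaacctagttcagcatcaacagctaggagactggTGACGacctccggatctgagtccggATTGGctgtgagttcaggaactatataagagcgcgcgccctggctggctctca

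In all 3 promoters the X2 and Y cores stood 20 bases apart. Among the 8 members with a promoter, H2-K1, H2-D1 and B2m held the pair (37.5%), as did 0.646% of 32526 distinct promoters of that length. The pair was searched after these promoters had been read, and H2-K1 and H2-D1 are related copies. The NF-kB consensus was found in the same 3 genes, and in 7.28% of all promoters. In H2-K1 and H2-D1 it matched in 2 overlapping frames of the same stretch. GAAANNGAA was found in B2m alone (12.5% of the 8), beside 7.15% of all promoters. Other forms of the interferon-stimulated response element were not searched, so promoters without these letters, among them those of H2-K1 and H2-D1, may hold one. The STAT site TTCNNNGAA was found in Psmb8 alone, beside 7.04% of all promoters. The remaining promoters of Tap1, Tapbp, Psmb9 and Psmb10 held none of these patterns, which says only that these letters are not in these windows.

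Psmb9 and Tap1 are transcribed away from each other from RefSeq starts that leave 225 bases between them. The stretch is shown because both genes share it, at chr17:34187331-34187555 on the strand of Tap1.
Psmb9-Tap1: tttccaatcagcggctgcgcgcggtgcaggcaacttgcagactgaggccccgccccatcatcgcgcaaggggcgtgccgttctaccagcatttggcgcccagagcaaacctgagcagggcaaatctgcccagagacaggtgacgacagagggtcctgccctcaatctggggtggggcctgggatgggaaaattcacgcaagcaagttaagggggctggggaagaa

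The total count per tumor was 27866266 to 51828846 in KPY-Ctrl and 20072236 to 40604404 in KPY-Setd2KO. Setd2 was 41.9 to 63.6 CPM (counts scaled by the TMM-normalized library size) in KPY-Ctrl and 17.9 to 47.4 CPM in KPY-Setd2KO. The groups overlapped, and every KPY-Setd2KO tumor lay below the KPY-Ctrl median of 53.8 CPM. The exact permutation test over 3003 splits of the tumors gave a two-sided p of 0.00466. In edgeR, which tested the whole table, its log2 fold change of -0.74 ± 0.22 (SE) had an adjusted p of 0.175. Guide-directed cuts need not lower the transcript, so this is a partial check of the labels. Leukocyte-marker RNA, summarised as a score that is the mean log2 CPM of 12 markers such as Ptprc, was 3.19 to 8.31 in controls and 3.05 to 8.66 in knockouts. Setd2 was 32.7 to 47.4 CPM in KPY-Setd2KO replicates 1 to 4 (scores 8.21 to 8.66). It was 17.9 to 28.2 CPM in replicates 5 to 8 (3.05 to 5.25). Among controls, replicate 3 (3.19) had the lowest Setd2 and replicate 4 (4.3) the highest. The relation of Setd2 to the score was not tested.

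All 10 members were higher on average in KPY-Setd2KO tumors, with log2 fold changes from 0.40 for Psmb10 to 1.56 for H2-K1. The spread was of the same size, with an SD of 1.22 between tumors of one genotype for the mean log2 CPM of the members. None was called by edgeR at the adjusted threshold of 0.05, as for all genes tested (0 of 16836, 0%). At an unadjusted p under 0.05, 2 members (H2-K1 and H2-D1) were higher and none lower, beside 6.93% of all genes that were higher at that threshold. The median log2 fold change of the members was 1.17, beside 0.03 for all genes tested. In the plot of levels by tumor, the genotypes overlapped for each member.

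**Figure D1:**
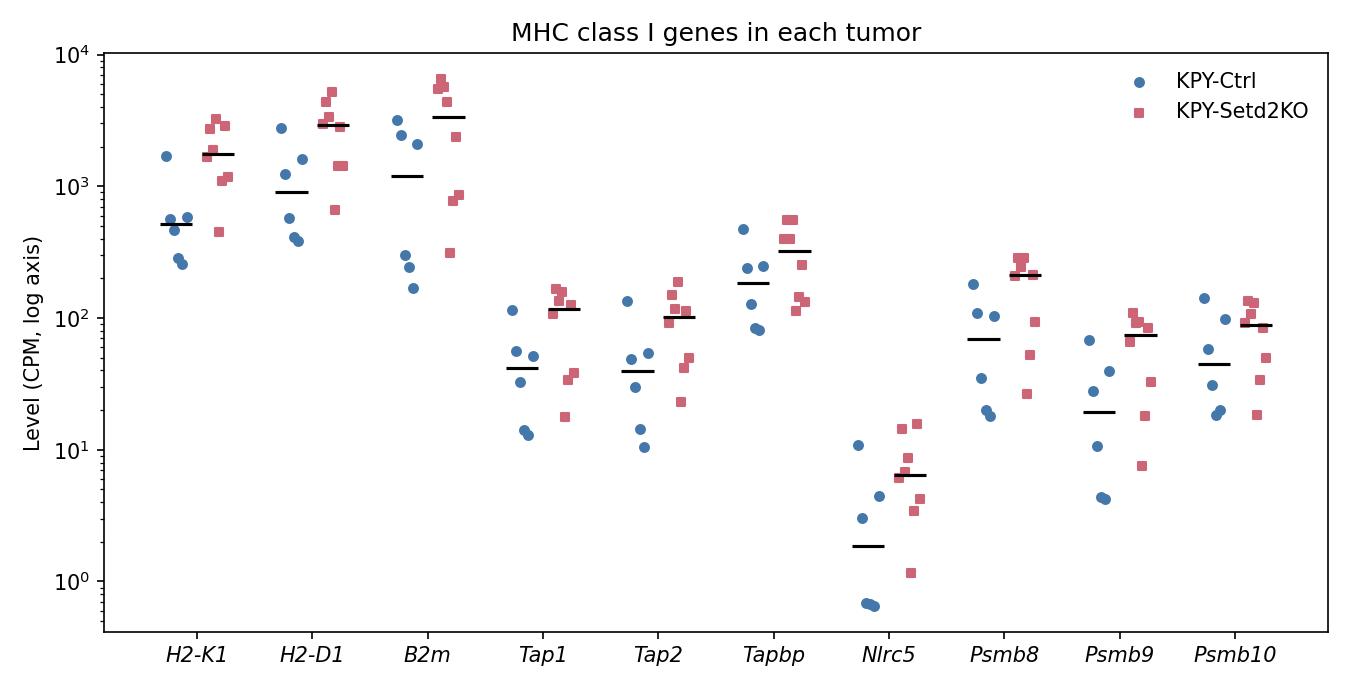
Level of each MHC class I gene in CPM on a log axis, with 1 point per tumor (6 KPY-Ctrl, 8 KPY-Setd2KO) and a black line at each group's median. The KPY-Setd2KO median lies above the KPY-Ctrl median for all 10 genes, and the groups overlap for each of them.

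H2-K1, one of the classical heavy chains that bind peptide, had the largest difference of the members in edgeR on genotype alone. With the leukocyte-marker score in edgeR that of Nlrc5 was larger, and with the replicate block (1.64 against 1.57) and in limma that of B2m. Its level was lowest at 256, had a median of 516 and was highest at 1694 CPM in KPY-Ctrl, and was 449, 1774 and 3222 CPM in KPY-Setd2KO. KPY-Ctrl replicate 1 stood above the other controls, which reached 580 CPM at most, and 4 of 8 KPY-Setd2KO tumors exceeded that highest control. The log2 fold change was 1.56 ± 0.50 (SE; 2.94-fold), with an unadjusted p of 0.0076 and an adjusted p of 0.201. H2-K1 was the only member called by DESeq2 (adjusted p = 0.0399), which called 2.02% of the genes it tested as higher.

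H2-D1, the other classical heavy chain in the list, was 383, 904 and 2751 CPM (lowest, median, highest) in KPY-Ctrl and 667, 2904 and 5163 CPM in KPY-Setd2KO. Of the 8 KPY-Setd2KO tumors, 5 lay above every control, and 3 of 6 controls lay below every KPY-Setd2KO tumor. The log2 fold change was 1.26 ± 0.54 (SE), with an adjusted p of 0.318. Class I heavy chains resemble each other, and 6.90% of the 75-base words of the H2-D1 principal transcript, against 1.55% of those of H2-K1, also occur in transcripts of other genes. Estimated counts of these genes may therefore be divided with some uncertainty.

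B2m, the light chain that every class I molecule needs, had the highest level per length in both genotypes. It was 170, 1194 and 3205 CPM in KPY-Ctrl and 310, 3358 and 6495 CPM in KPY-Setd2KO. The spread was the widest of the members, with an 18.9-fold range among controls and a 21.0-fold range among KPY-Setd2KO tumors. Its log2 fold change of 1.23 ± 0.81 (SE) had an adjusted p of 0.555.

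Tap1 and Tap2 encode the paired subunits of the transporter that carries peptides into the endoplasmic reticulum. Tap1 was 12.9, 42.0 and 116 CPM in KPY-Ctrl and 17.6, 116 and 165 CPM in KPY-Setd2KO, with a log2 fold change of 1.04 ± 0.59 (SE; adjusted p = 0.468). Tap2 was 10.4, 39.5 and 135 CPM in KPY-Ctrl and 23.1, 102 and 188 CPM in KPY-Setd2KO, with a log2 fold change of 0.99 ± 0.58 (SE; adjusted p = 0.491). For both genes the KPY-Setd2KO median lay near or below the highest control, KPY-Ctrl replicate 1. Tapbp encodes tapasin, which bridges the transporter and the heavy chain. It was 81.8, 185 and 475 CPM in KPY-Ctrl and 114, 325 and 557 CPM in KPY-Setd2KO, and its log2 fold change of 0.61 ± 0.49 (SE) had an adjusted p of 0.646.

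Nlrc5, which encodes the transactivator of class I genes, was the least abundant member. It was 0.656, 1.86 and 10.9 CPM in KPY-Ctrl and 1.15, 6.42 and 15.6 CPM in KPY-Setd2KO. KPY-Ctrl replicates 3, 4 and 5 lay below every KPY-Setd2KO tumor, and 7 of 8 KPY-Setd2KO tumors lay above the control median. The log2 fold change was 1.14 ± 0.72 (SE; adjusted p = 0.529).

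Psmb8, Psmb9 and Psmb10 encode catalytic subunits that take the place of Psmb5, Psmb6 and Psmb7 in the immunoproteasome. Psmb8 was 18.04, 69.5 and 180 CPM in KPY-Ctrl and 26.3, 211 and 287 CPM in KPY-Setd2KO, with a log2 fold change of 1.19 ± 0.63 (SE; adjusted p = 0.432). Psmb9 was 4.26, 19.3 and 68.4 CPM in KPY-Ctrl and 7.50, 74.96 and 110 CPM in KPY-Setd2KO, with a log2 fold change of 1.28 ± 0.70 (SE; adjusted p = 0.459). Psmb10 differed least, at 18.5, 44.7 and 143 CPM in KPY-Ctrl and 18.5, 88.5 and 134 CPM in KPY-Setd2KO, with a log2 fold change of 0.40 ± 0.53 (SE; adjusted p = 0.818). No KPY-Setd2KO tumor exceeded the highest control for Psmb10, whereas 5 of 8 did for Psmb8 and 4 of 8 for Psmb9.

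Per kilobase of the principal transcript, the mean levels in KPY-Ctrl tumors fell in the order B2m (1637 ± 1549 CPM per kb, SD, n = 6), H2-D1 (553 ± 438), H2-K1 (396 ± 329), Tapbp (72.4 ± 51.6), Psmb8 (47.6 ± 39.6), Psmb10 (47.0 ± 38.1), Psmb9 (19.1 ± 18.6), Tap1 (15.99 ± 12.9), Tap2 (14.2 ± 13.3) and Nlrc5 (0.448 ± 0.526). The order was the same in KPY-Setd2KO tumors, from B2m at 3827 ± 2913 CPM per kb (SD, n = 8) to Nlrc5 at 0.992 ± 0.673. Apart from the step from Tap2 to Nlrc5, neighbors in the order differed by less than the SD of the higher gene in controls. That SD is between tumors and does not measure the order within a tumor. In KPY-Setd2KO the lowest H2-K1 level (277 CPM per kb) lay above the highest of Tapbp (192), whereas in KPY-Ctrl the ranges overlapped (158 and 164).

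The members moved together from tumor to tumor. After centering each gene within its genotype, Pearson's r of log2 CPM over the 14 tumors had a median of 0.95 over the 45 pairs of members, from 0.84 (B2m with H2-K1) to 0.99 (Psmb8 with Psmb9). These values share libraries, depth and cell composition, and are given as a description. The 10 other genes most like the mean of the standardized members were Ube2l6 (r = 0.98), Bst2, Rnpep, Meaf6, Acaa1a, Sod2, Aurkaip1, Tomm6, Fbxo6 and Zbp1 (r = 0.97). Their log2 fold changes between genotypes ranged from 0.00 for Acaa1a to 1.59 for Zbp1, and none was called, as for all genes tested.

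Tumors with high leukocyte-marker RNA also had high class I RNA. The markers were measured in the same libraries, and in bulk RNA more cells of a type cannot be told apart from more RNA per cell. In the lowest-scoring tumor, KPY-Setd2KO replicate 5 (score 3.05), H2-K1 was 449 CPM and B2m 310 CPM. In the highest, KPY-Setd2KO replicate 2 (score 8.66), they were 2724 and 6495 CPM. KPY-Setd2KO replicate 7 departed from this order, with a score of 5.02 but H2-K1 at 2888 CPM, Nlrc5 at 15.6 CPM and Psmb9 at 84.2 CPM. KPY-Ctrl replicates 4 and 5, at scores of 4.3 and 4.03, had 287 and 256 CPM of H2-K1 and 0.672 and 0.656 CPM of Nlrc5. KPY-Ctrl replicates 2 and 6, at scores of 8.31 and 7.94, had 566 and 580 CPM of H2-K1, below the 1670 CPM of KPY-Setd2KO replicate 1 at a score of 8.21. KPY-Ctrl replicate 1, at a score of 8.24, had 1694 CPM.

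**Figure D2:**
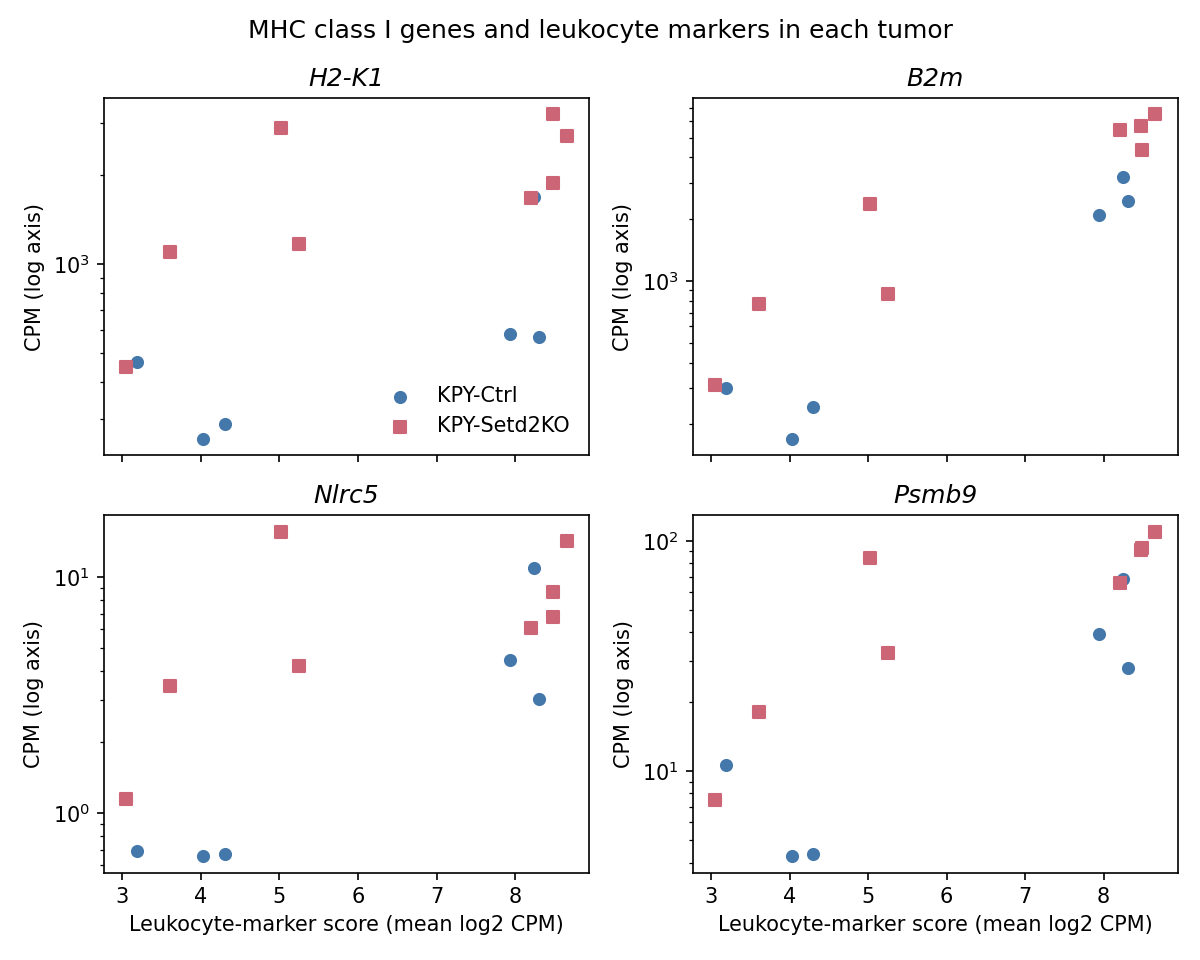
Levels of H2-K1, B2m, Nlrc5 and Psmb9 in CPM (log axes) against the leukocyte-marker score (mean log2 CPM of 12 markers), with 1 point per tumor. KPY-Setd2KO replicate 7 stands high at a score of 5.02, and KPY-Ctrl replicates 3, 4 and 5 stand low at scores of 3.19 to 4.3.

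The score itself had a median of 6.12 in KPY-Ctrl and 6.73 in KPY-Setd2KO tumors. In edgeR on genotype alone, 10 of its 12 markers were above 0 (median log2 fold change 0.31), beside 52.7% of all genes tested. None of the 12 was called, but that fit called no gene at all (0 of 16836). With the score as a covariate in edgeR, the log2 fold changes of the members stayed between 0.37 and 1.56 with a median of 1.21, while their standard errors became smaller. B2m (1.25 ± 0.30 SE, adjusted p = 0.0301), H2-K1 (1.53 ± 0.37, 0.0305), H2-D1 (1.24 ± 0.27, 0.0223) and Psmb8 (1.18 ± 0.32, 0.0491) were then called as higher, 4 of 10, beside 2.93% of all genes. Psmb9 had an adjusted p of 0.0663, Nlrc5 of 0.0982, Tap2 of 0.114 and Tap1 of 0.139 in the same edgeR fit, and Tapbp (0.193) and Psmb10 (0.424) were farther from the threshold. DESeq2 with the score called 7 members as higher, adding Psmb9, Nlrc5 and Tap2, beside 6.04% of all genes. In limma voom with sample quality weights, all 10 members were called as higher, beside 24.7% of all genes, with a median log2 fold change of 2.58. The weights moved with the leukocyte-marker score in opposite ways in the genotypes. KPY-Ctrl replicates 4 and 5 had weights of 3.55 and 4.76, against 0.36 to 0.64 for the controls with scores from 7.94. KPY-Ctrl replicate 3, with the lowest score of the controls (3.19), had a weight of only 1.07. KPY-Setd2KO tumors with scores from 8.21 had 1.28 to 2.1, against 0.41 to 0.61 for the other KPY-Setd2KO tumors. The part of the weights in that fit was not tested. The use of this score as a covariate was proposed after earlier results of these data were known.

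**Figure D3:**
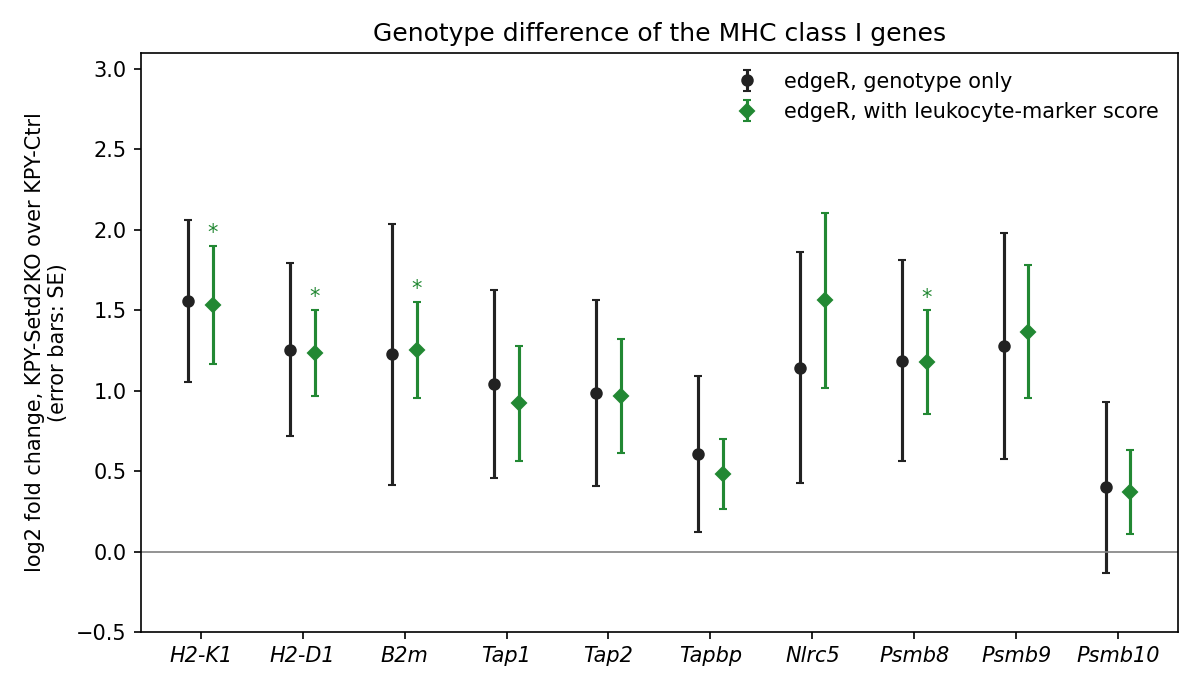
Log2 fold change of each member between KPY-Setd2KO and KPY-Ctrl tumors, with bars of 1 SE, in edgeR on genotype alone (circles) and with the leukocyte-marker score as covariate (diamonds). Stars mark an adjusted p under 0.05, reached by H2-K1, H2-D1, B2m and Psmb8 with the covariate and by none without it.

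Other cell-type markers were read beside the members. Macrophage markers summed to 2528 to 33978 CPM in KPY-Ctrl and 1769 to 49576 CPM in KPY-Setd2KO, with none of 12 called, as for all genes tested. Of these 12, 10 were above 0, beside 52.7% of all genes tested. Their log2 fold changes ranged from -0.80 to 1.10, with a median of 0.40. T and NK cell markers summed to 2.62 to 9.48 CPM and 3.05 to 9.13 CPM, and 5 of these 9 markers were too low to be tested. Of the 4 tested, 3 were above 0, with a median log2 fold change of 0.15 and a lowest of -0.13. Cd3d, a subunit of the T cell receptor complex, had the smallest p and the largest change of these. It was 1.21, 1.87 and 2.58 CPM in KPY-Ctrl and 1.84, 2.80 and 4.34 CPM in KPY-Setd2KO, with 7 of 8 KPY-Setd2KO tumors above the control median. Its log2 fold change was 0.66 ± 0.29 (SE; unadjusted p = 0.0389, adjusted p = 0.333 in edgeR). At an unadjusted p under 0.05, 6.93% of all genes were higher. B cell markers summed to at most 12.5 and 15.2 CPM. Epithelial markers such as Epcam and Sftpc summed to 10159 to 41111 CPM in KPY-Ctrl and 4539 to 39689 CPM in KPY-Setd2KO. Endothelial markers summed to 16.3 to 136 CPM and 22.1 to 113 CPM. Of 5 tested, 4 were above 0, with log2 fold changes from -0.28 to 1.29. Pecam1 had the smallest p of these, with a log2 fold change of 0.93 ± 0.33 (SE; adjusted p = 0.238 in edgeR). Fibroblast markers summed to at most 85.7 and 28.7 CPM. No marker was at 0 in every tumor, and the part of macrophages, endothelium and other cells in the genotype difference was not tested.

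Transcripts of immunoproteasome and constitutive subunits were compared as ratios of level per length within each tumor. Ratios in bulk RNA do not show which subunits are built into proteasomes, or in which cells. Psmb5, Psmb6 and Psmb7 themselves had log2 fold changes of 0.31 ± 0.25, 0.36 ± 0.23 and 0.11 ± 0.12 (SE), and none was called, as for all genes tested. Psmb7 was 112 to 148 CPM in controls and 122 to 156 CPM in knockouts. The ratio of Psmb8 to Psmb5 was 0.0860 at its lowest, 0.236 at its median and 1.03 at its highest in KPY-Ctrl, and 0.112, 0.785 and 1.68 in KPY-Setd2KO. Psmb9 to Psmb6 was 0.0298, 0.104 and 0.238 in KPY-Ctrl and 0.0488, 0.260 and 0.416 in KPY-Setd2KO. Psmb10 to Psmb7 was 0.145, 0.299 and 1.13 in KPY-Ctrl and 0.123, 0.512 and 0.975 in KPY-Setd2KO. For each ratio 6 of 8 KPY-Setd2KO tumors lay above the control median, and the groups overlapped. Psmb8 to Psmb5 was 1.03 in KPY-Ctrl replicate 1 (leukocyte-marker score 8.24) and 0.108 in replicate 4 (4.3). It was 1.68 in KPY-Setd2KO replicate 2 (8.66) and 0.112 in replicate 5 (3.05). KPY-Ctrl replicate 6 (0.313 at 7.94) and KPY-Setd2KO replicate 7 (0.546 at 5.02) lay between. The part of leukocyte-marker RNA in the ratios was not tested.

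The mean log2 ratio was higher in KPY-Setd2KO tumors by 1.01 for Psmb8 to Psmb5, by 1.18 for Psmb9 to Psmb6 and by 0.44 for Psmb10 to Psmb7. Two-sided exact permutation tests over the splits of the tumors gave p = 0.234, 0.0779 and 0.460, or 0.351, 0.234 and 0.460 after adjustment over the 3 ratios. The SD of the log2 ratios within a genotype ranged from 1.02 to 1.55, and only the difference for Psmb9 to Psmb6 was of the size of its spread. Those for Psmb8 to Psmb5 and Psmb10 to Psmb7 were smaller than theirs. With single tumors left out, the difference for Psmb8 to Psmb5 was lowest at 0.68 when KPY-Ctrl replicate 5 was dropped and highest at 1.39 when KPY-Ctrl replicate 1 was, and that for Psmb9 to Psmb6 was 0.89 and 1.49 for the same tumors. For Psmb10 to Psmb7 the difference was 0.21 and 0.22 without KPY-Ctrl replicates 4 and 5, 0.28 without KPY-Setd2KO replicate 2, 0.71 without KPY-Setd2KO replicate 5 and 0.81 without KPY-Ctrl replicate 1.

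**Figure D4:**
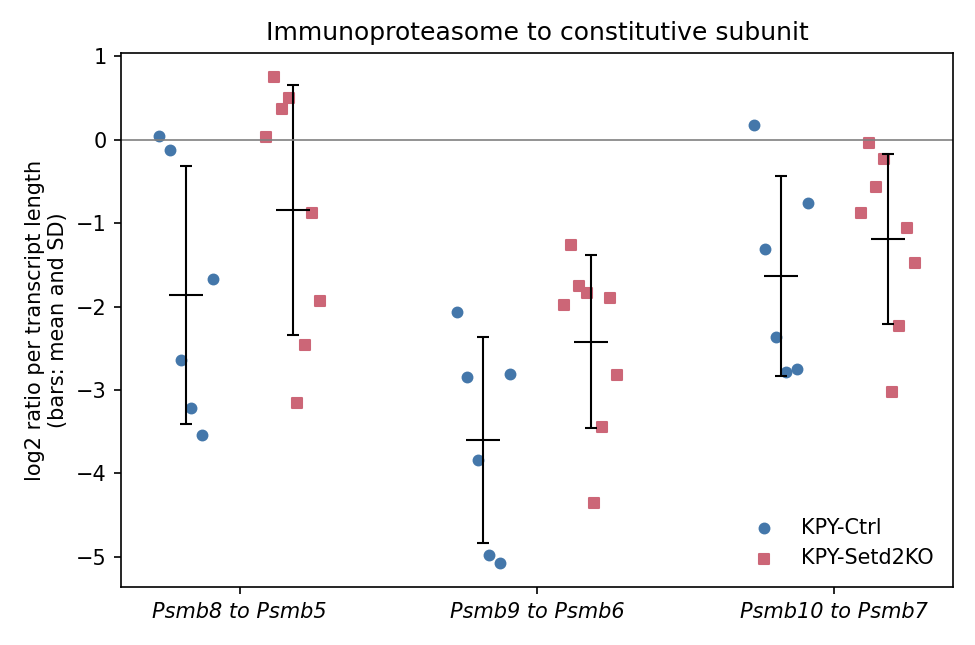
Log2 ratios of immunoproteasome to constitutive subunits per transcript length in each tumor, with bars at the mean and SD of each genotype (6 KPY-Ctrl, 8 KPY-Setd2KO). The means are higher in KPY-Setd2KO by 1.01, 1.18 and 0.44, and the groups overlap in each ratio.

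In the wider class I pathway, 68 of 70 listed genes were tested, none was called by edgeR, and 14 were higher and none lower at an unadjusted p under 0.05, a threshold at which 6.93% of all genes were higher (1166 of 16836) and 1145 lower. For other class I and class I-like heavy chains the median log2 fold change was 0.83, with all 15 genes tested above 0 and 5 at an unadjusted p under 0.05. H2-Q4, a class Ib heavy chain, had the smallest p and was 24.9, 47.5 and 159 CPM (lowest, median, highest) in KPY-Ctrl and 54.0, 148 and 302 CPM in KPY-Setd2KO, a log2 fold change of 1.49 ± 0.46 (SE; adjusted p = 0.187). H2-M2 had the largest change, from 0.209, 1.85 and 28.8 CPM in KPY-Ctrl to 2.70, 26.7 and 290 CPM in KPY-Setd2KO, a log2 fold change of 3.79 ± 1.28 (SE; adjusted p = 0.221). H2-Q4, H2-Q7 and H2-M2 were the 3 wider pathway genes that DESeq2 called, beside 2.02% of all genes called as higher. With the leukocyte-marker score in edgeR, 9 were called, all higher, beside 2.93% of all genes, among them 7 heavy chains (H2-Q4, H2-Q6, H2-Q7, H2-T22, H2-T24, H2-M2, H2-M3) and Pomp, the maturation factor of the proteasome.

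Among proteasome activators and assembly factors, 3 of 5 genes were higher at an unadjusted p under 0.05, beside the same 6.93% of all genes. Psme1, a subunit of the interferon-induced PA28 cap, was 163, 192 and 265 CPM in KPY-Ctrl and 188, 329 and 400 CPM in KPY-Setd2KO (log2 fold change 0.58 ± 0.20 SE, adjusted p = 0.229), and its partner Psme2 had a log2 fold change of 0.63 ± 0.29. The other 20S core subunits had a median of 0.23 over 11 genes, with Psma3 at 0.46 ± 0.18. Peptide loading and trimming genes had a median of 0.28 over 9 genes, with the smallest p for the aminopeptidase Npepps (0.33 ± 0.15) and the largest change for the chaperone calreticulin, Calr (0.55 ± 0.26). In edgeR on genotype alone each of these genes missed the adjusted threshold, as did all genes tested. DESeq2 with the leukocyte-marker score called Psma3, Psme1 and Psme2 but not Npepps or Calr, beside 6.04% of all genes called as higher. The limma fit with quality weights called those 3 and Calr, beside 24.7%.

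For interferon receptors and signaling genes the median log2 fold change was 0.41, and of 15 genes 13 were above 0 and 2 (Stat2 and Irf9) were higher at an unadjusted p under 0.05. Of all genes tested, 52.7% were above 0 and 6.93% were higher at that threshold. Stat2, which acts downstream of type I interferon receptors, was 15.1, 19.6 and 37.1 CPM in KPY-Ctrl and 14.1, 32.1 and 75.4 CPM in KPY-Setd2KO, and had a log2 fold change of 0.85 ± 0.38 (adjusted p = 0.337 in edgeR). Factors that bind class I promoters had a median of -0.04 over 10 genes, from -0.36 for Ciita, the class II transactivator, to 0.34 for Rfxap, a subunit of the RFX complex that binds the X box.

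Interferon transcripts themselves were near the floor and were not tested. Ifng had 15 counts in a single KPY-Ctrl tumor and 8 counts over 3 KPY-Setd2KO tumors. Ifnb1 had 39 counts in 1 KPY-Ctrl tumor and 1 count in 1 KPY-Setd2KO tumor, and Ifnl2 had 1 and 2 counts in all. Ifna4 had 0 counts in every tumor, which allows up to 3 counts per library for counting error alone. A difference in these transcripts was not detectable at this depth.

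Leaving out single tumors changed how many members had an unadjusted p under 0.05 in edgeR. The number was 7 without KPY-Ctrl replicate 1 (7.81% of all genes were higher at that threshold) and 5 without KPY-Setd2KO replicate 5 (6.94%), tumors which had the highest and the lowest H2-K1 level of their groups. It was 1 (H2-K1) without any one of KPY-Ctrl replicates 3, 4 and 5 or KPY-Setd2KO replicates 2, 3 and 4. In each of these fits all 10 members remained higher in KPY-Setd2KO and none was called.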

How the data were processed

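The values are estimated counts that the authors deposited, whole numbers for each Ensembl gene, made with Salmon 0.8.2 against GRCm38.p5 per the study's methods and processing notes, from single-end reads of 14 tumors. The largest values are written with 3 digits, which rounds the most abundant genes. Symbols, coordinates and principal transcripts came from GENCODE (GRCm38), which matched 52403 of 52550 identifiers. Counts were tested with edgeR 4.0.16 in R 4.3.3 (TMM, expression filter, robust quasi-likelihood test, Benjamini-Hochberg over 16836 genes), and called at an adjusted p under 0.05. Log2 CPM used a prior count of 2, and ratios a pseudocount of 0.5. DESeq2 1.42.0, limma 3.58.1, other scalings, no filter, a leukocyte-marker covariate, a replicate block and leaving out each tumor were alternatives. Standard errors of edgeR were computed from the fold change and its F statistic.

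The members and lists were chosen with earlier results of these data known. The text names all members, Setd2, the constitutive subunits, in each other pathway list the genes with the smallest p and the largest change, and the 10 genes most correlated with the members, apart from an item that is not reported here. Other genes (such as those that an alternative called) were named after their values were seen, as was the X2 and Y box pair. Counts cover counting error only where limits are given. On simulated counts for 16840 genes, edgeR recovered 13% of genes changed by a log2 fold change of 1 and 57% of those changed by 2, with 0 false calls. DESeq2 recovered 43% and 68% with 50 false calls, and limma voom with quality weights 10% and 55% with 3. The simulated counts were drawn independently for each gene, without shared leukocyte-marker RNA or tumors of unequal quality. Their false calls therefore do not measure how often each tool errs on the real counts.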

Additional observations from a re-analysis of the deposited data

How the results depend on the processing

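In edgeR, 0 members and 0 wider pathway genes were called on genotype alone, with RLE size factors, scaled to library totals, with no filter, with a replicate block and with each tumor left out. DESeq2 called 1 member and 3 wider pathway genes, beside 2.02% of all genes called as higher. The leukocyte-marker covariate gave 4 and 9 in edgeR, beside 2.93% of all genes called as higher. In DESeq2 it gave 7 and 15 (14 of the 15 higher), beside 6.04%. The limma voom fit with quality weights gave 10 and 42 (40 of the 42 higher), with a median member log2 fold change of 2.58. That fit called 8293 of all 16836 genes in either direction, 4163 of them as higher. The causes of these differences between tools were not tested. All 220 member values under alternatives were above 0, of which 22 came past the threshold. The median log2 fold change of the members was 0.96 to 1.64 with single tumors left out, and 1.35 with the replicate block. Same-numbered tumors correlated from -0.664 to 0.657 in their deviations from the group means. These deviations include differences in leukocyte-marker RNA, so they cannot show whether the numbers pair tumors. The 3 ratios missed the threshold under a pseudocount of 5, without division by length and in the sign-flip test over 6 same-numbered pairs, whose smallest possible p is 0.0312. Setd2 had log2 fold changes of -0.85 to -0.66 with single tumors left out and -0.75 in DESeq2. With library totals as the only scaling, the median over all genes was -0.11 and the member median 1.08. The interferon genes, with at most 39 counts in a tumor, were too low to be tested.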
